A study of Mus musculus with 3 samples.

Results

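H19, Meg3, Rian, Mirg, Dlk1, Peg3, Mest, Plagl1, Kcnq1ot1 and Grb10 are imprinted genes, chosen by symbol from the deposited counts of the mouse osteocytic cell line IDG-SW3. All 10 symbols were found among the 25410 symbols measured, and the rows of a symbol were summed. The 3 libraries, labelled replicates 1, 2 and 3, form 1 group: IDG-SW3 cells at day 35 of differentiation, treated with 100 nM parathyroid hormone (PTH) for 24 h. The cells were expanded with interferon-gamma at the lower permissive temperature and differentiated without it in medium with ascorbic acid and β-glycerol phosphate. The design text describes the replicates as biological. Vehicle-treated libraries were not analysed here, so no effect of PTH was measured, and every value is a level in PTH-treated cells of a single line. The counts do not separate the parental alleles.

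Imprinted genes are expressed mainly from the maternal or from the paternal chromosome, according to DNA methylation set in the germ line. They lie in domains in which a control region governs several genes, and many of them act on growth before and after birth. In general, paternally expressed members such as Mest, Peg3, Plagl1 and Dlk1 favour growth or progenitor states, whereas maternally expressed H19 and Grb10 restrain growth. Long noncoding RNAs are part of these domains: H19 sits beside the growth factor gene Igf2, Meg3, Rian and Mirg lie in the Dlk1-Dio3 domain, and Kcnq1ot1 runs antisense to Kcnq1 and silences its neighbours on the paternal chromosome.

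Some members also carry small RNAs. With genes from GENCODE M21 and hairpins from RefSeq (both GRCm38), the miR-675 hairpin lies in an exon of H19, miR-770 in an exon of Meg3 and miR-335 in an intron of Mest. The mature forms are shown because H19 and Mest were the highest members and Meg3 had few counts. The listed values of these host genes thus differed widely, but the 3 rows of Meg3 leave its level uncertain. Sequences are from RefSeq (GRCm38.p6), 5′ to 3′, with the seed (bases 2 to 8) in capitals. The 5p forms lie at chr7:142577112-142577133 (minus strand, miR-675), chr6:30741314-30741336 (plus strand, miR-335) and chr12:109563710-109563731 (plus strand, miR-770). The 6 seeds are all different.
miR-675-5p: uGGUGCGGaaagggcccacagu
miR-675-3p: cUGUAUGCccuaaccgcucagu
miR-335-5p: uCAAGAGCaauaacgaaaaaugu
miR-335-3p: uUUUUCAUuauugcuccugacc
miR-770-5p: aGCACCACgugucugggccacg
miR-770-3p: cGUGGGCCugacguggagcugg

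Rian contains 3 hairpins of the RefSeq table and 13 small nucleolar RNA genes within its body, and Mirg contains 14 hairpins, 4 of them wholly in exons. Of the hairpins inside members, 18 had a row in the files, 1 of them under an older symbol, and all 18 were listed at 0 in every library. Among all 426 symbols named as microRNA genes, 88.7% were at 0. How these libraries capture RNAs of that size was not tested, so a 0 for a hairpin is not read as absence of the microRNA.

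Depth was 35195518, 37299517 and 45240005 counts in replicates 1, 2 and 3. The file names call the values RPKM, but they are whole numbers and were read as counts. RPKM below is the count divided by the transcript's length in kilobases and by the library's total in 1e6 counts, computed here with the median length of a symbol's GENCODE M21 transcripts, and given as mean ± SD (n = 3). Of 16 osteoblast and osteocyte markers, 11 were above 1 RPKM, led by Sparc at 6409 ± 408, and 5 were not called. Among all symbols tested, which leaves out those at 0, 43.2% were above. Pdpn (156 ± 27.6) and Phex (9.05 ± 0.94) were among the markers above. Those not called were Runx2, Mepe, Fgf23, Dmp1 (0.652 ± 0.547) and Sost (0.00917 ± 0.0159). The 8 markers of skeletal muscle, a tissue in which H19 is abundant, summed to 1.07 to 1.22 RPKM in each library, with Tnnt3 listed at 0. Adipocyte markers had 4 of 8 above 1 RPKM, with a summed level of 16.4 to 23.1 RPKM and Plin1 listed at 0, and their part in the levels of the members was not tested. Cartilage markers summed to 50.3 to 68.9 RPKM with 3 of 8 above 1 RPKM, endothelial markers to 3.74 to 4.24 with 1 of 8 above and Pecam1 and Emcn at 0, and haematopoietic markers to 0.559 to 1.68 with Itgam at 0.

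The number of rows of a symbol bears directly on these genes. Of symbols with 1 row, 5.77% were at 0 in all 3 libraries, against 30.4% of those with 2 rows, 31.0% with 3 rows and 41.8% with 5 rows. Meg3 has 3 rows, Dlk1 5 and Grb10 2, and the other 7 members have 1 row each. A low value of Meg3 or Dlk1 is therefore not read as absence. The marker genes listed at 0 also have several rows: 8 for Tnnt3 and 2 each for Plin1, Pecam1, Emcn and Itgam. Their values of 0 are not read as absence either.

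The level of each gene was compared with 1 RPKM in a test fitted over all 20999 symbols that had a count and a length (edgeR, quasi-likelihood). H19, Mest, Plagl1, Rian, Grb10 and Kcnq1ot1 were above 1 RPKM, Peg3 was below, Meg3 and Mirg were not called, and Dlk1 was listed at 0 and not tested. Thus 6 of the 9 members tested were above, where 43.2% of all symbols tested were, and 1 was below, where 13.4% were. Of symbols with 1 row, 45.4% were above and 12.6% below, beside 5 and 1 of the 7 members with 1 row. Of symbols with 2 or more rows, 25% were above and 20.2% below, and of the members tested with several rows Grb10 was above and Meg3 was not called. Among annotated long noncoding genes 17.6% were above, and among protein-coding genes 44.7%. The median level of the 10 members was 1.94 RPKM, beside 0.497 RPKM over all 23033 symbols with a length. The replicates measure the spread between cultures of the line.

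**Figure D1:**
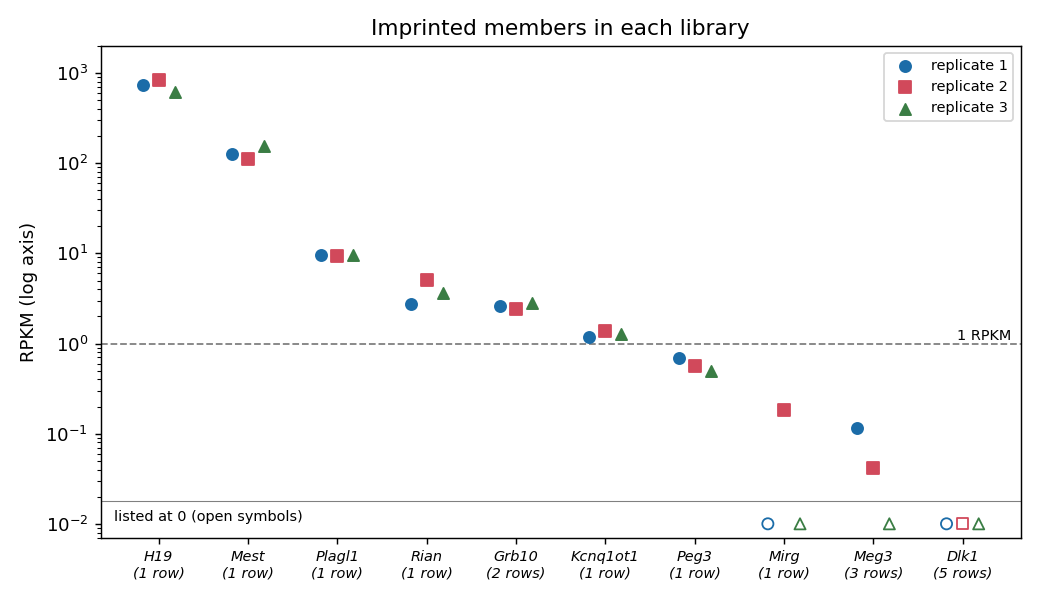
RPKM of the 10 members in each of the 3 libraries (log axis), with the number of rows of each symbol; open symbols mark a value listed at 0 and the dashed line is 1 RPKM. H19 lies between 612 and 834 RPKM in every library, and Dlk1 is listed at 0 in all 3.

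H19, a spliced noncoding RNA of the Igf2-H19 domain on chromosome 7, was the highest member. Replicates 1, 2 and 3 held 58909, 71138 and 63250 counts, which are 732, 834 and 612 RPKM. The mean of 726 ± 111 RPKM placed H19 at rank 110 of 23033 symbols, and its log2 level over 1 RPKM was 9.50 (edgeR adjusted p = 2.19e-194). All 3 libraries were far above every other member. Only 1 transcript length, 2286 bases, is in the basic annotation, so the level does not move with that choice.

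The listed neighbours of H19 in the same domain had few or no counts. Igf2, the growth factor gene that shares enhancers with H19, had 17 counts in replicate 2 and 0 in the other libraries, over 3 rows. Nctc1, a noncoding RNA beyond H19, has a single row and had 6, 12 and 3 counts. The insulin gene Ins2 had 13 counts in replicate 3 alone, over 3 rows, and Th was listed at 0. Igf2, Nctc1 and Ins2 were not called. The 3 rows each of Igf2 and Ins2 leave their levels uncertain, so no fold of H19 over Igf2 is given.

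Mest (also called Peg1), a paternally expressed gene for a hydrolase-like protein on chromosome 6, was the highest protein-coding member. Its levels were 128, 113 and 154 RPKM in replicates 1, 2 and 3, from 11506, 10768 and 17794 counts. The mean was 131 ± 20.7 RPKM, at rank 590 (log2 level 7.04, edgeR adjusted p = 2.94e-176). Every library exceeded 100 RPKM, and replicate 3 was highest. In GENCODE M21 the 3′ neighbour Copg2, a coatomer subunit gene on the opposite strand, overlaps 912 exon bases of Mest, 32.9% of them. The libraries were strand-preserving, but whether the counting used strand is not given in the sources used here, so some reads could belong to either gene.

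Within each library, Mest exceeded Copg2 (28.4 ± 1.23 RPKM, 2 rows) by log2 ratios of 2.10, 2.04 and 2.45, a mean of 2.20 ± 0.22 or 4.58-fold. The mean log2 ratio was 2.86 with only the row of highest total for each gene and 3.19 with the mean over rows. Row number limits this ratio, since Copg2 has 2 rows and Mest has 1. The same direction was seen in 3 of 3 libraries, where the exact sign-flip test cannot give a p below 0.25. The nearby cilium gene Cep41, listed as Tsga14, stood at 13.9 ± 0.944 RPKM and Cpa4 at 2.39 ± 0.284, both above 1 RPKM. Klf14, the maternally expressed transcription factor gene of the domain, had 11, 4 and 5 counts and was not called.

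Plagl1 (Zac1), a zinc finger transcription factor gene on chromosome 10 that regulates other imprinted genes, showed the smallest spread of the members. Its levels were 9.60, 9.41 and 9.66 RPKM, from 1333, 1385 and 1725 counts. The mean was 9.56 ± 0.131 RPKM (log2 level 3.26, edgeR adjusted p = 4.46e-100). The coefficient of variation between libraries was 1.37%, below the 2.62% that counting error alone gives, while the median over protein-coding symbols with at least 100 counts was 13.6%. Cdkn1c, a cell cycle inhibitor gene known as a target of Plagl1, had 2, 45 and 29 counts over 2 rows and was not called (0.335 ± 0.303 RPKM).

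Grb10, on chromosome 11, encodes an adaptor that binds the insulin and IGF1 receptors and dampens their signal. All its counts lay in 1 of its 2 rows, with 432, 428 and 605 counts, and the other row was at 0. The levels were 2.58, 2.41 and 2.81 RPKM, a mean of 2.60 ± 0.200 (log2 level 1.38, edgeR adjusted p = 1.26e-22). With the mean over rows in place of the sum, the log2 level was 0.38 and no longer called (edgeR adjusted p = 0.0528). The 3 libraries lay close together and all above 1 RPKM. With the shortest transcript the mean was 6.04 RPKM.

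The receptors to which Grb10 binds were also present. Insr stood at 12.5 ± 1.01 RPKM and Igf1r at 7.66 ± 0.508. Grb14, a related adaptor gene, stood at 4.57 ± 1.28, and Grb10 was lower than Grb14 in 3 of 3 libraries, with a mean log2 ratio of −0.75 ± 0.37. That order turned with the shortest transcripts, to a log2 ratio of 0.43, and the ratio was −1.70 with the mean over rows. Row number also limits the order, since Grb10 has 2 rows and Grb14 has 1. Nedd4, a ubiquitin ligase gene whose product binds Grb10, stood at 250 ± 7.24 RPKM. Among the other genes of the Grb10 domain, Cobl was below 1 RPKM at 0.252 ± 0.0361 and Ddc, with 2 rows, was listed at 0.

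Of 22 genes of IGF and insulin signalling, 15 were above 1 RPKM, 1 was below, 5 were not called and 1 was at 0, with a median of 10.1 RPKM. The gene at 0, Igfbp7, has 2 rows. Over all symbols tested, which leaves out those at 0, 43.2% were above and 13.4% below. Igfbp4, a gene for an IGF-binding protein, was the highest at 797 ± 62.8 RPKM, followed by Nedd4 and by Igfbp5, another binding protein gene, at 169 ± 24.2. Irs1, the insulin receptor substrate gene, stood at 72.8 ± 2.27, whereas Irs2 was below 1 RPKM at 0.243 ± 0.0769. Igf2r, an imprinted receptor gene that clears IGF2, stood at 67.3 ± 1.92. Igf1, with 5 rows, was not called at 1.22 ± 0.777.

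Peg3, a paternally expressed zinc finger gene on chromosome 7, was the only member called below 1 RPKM. Its counts of 214, 181 and 195 are 0.699, 0.558 and 0.496 RPKM, a mean of 0.584 ± 0.104 (log2 level −0.78, edgeR adjusted p = 0.0015). All 3 libraries were under 1 RPKM, and the rank of 11101 lies near the middle of all symbols. The other listed genes of its domain with a row were also below: Usp29 at 0.514 ± 0.0685 RPKM (edgeR adjusted p = 0.0124) and Zim1 at 0.487 ± 0.0801 (edgeR adjusted p = 0.039). Peg3 and Usp29, which start next to each other and run in opposite directions, differed by a mean log2 ratio of only 0.15 ± 0.12. That small difference turned to −0.51 with the shortest transcripts and was 0.76 with the longest.

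Kcnq1ot1, the long noncoding RNA of the Kcnq1 domain on chromosome 7, had many counts spread over a very long transcript. Its counts were 3845, 4797 and 5408, and the annotated length is 93092 bases in 1 exon. Per length this gives 1.17, 1.38 and 1.28 RPKM, a mean of 1.28 ± 0.104 (log2 level 0.36, edgeR adjusted p = 6.95e-06). The 3 libraries were just over 1 RPKM. With limma on log2(RPKM + 0.1) the level was not called (limma adjusted p = 0.168). Of its exon, 121 bases overlap exons of Kcnq1 on the opposite strand, and overlap with introns of Kcnq1 was not measured. As for Mest, whether the counting used strand is not given in the sources used here. Some reads could therefore belong to either gene.

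Other listed genes of the Kcnq1 domain differed widely in level, and whether Kcnq1ot1 silences any of them in these cells was not measured. Cdkn1c and Kcnq1 were not called, at 0.335 ± 0.303 and 0.128 ± 0.118 RPKM, and Phlda2, a placental growth regulator gene with 1 row, was listed at 0. Kcnq1 had 0, 13 and 24 counts in replicates 1, 2 and 3. Kcnq1ot1 exceeded Kcnq1 in 3 of 3 libraries, with a mean log2 ratio of 2.76 ± 0.83 that was 1.02 with a pseudocount of 1 RPKM. By contrast, Cd81, a tetraspanin gene at the edge of the domain, stood at 189 ± 28.9 RPKM, Nap1l4 at 25.9 ± 1.94 and Osbpl5 at 6.36 ± 0.86. In all, 3 of 11 other genes of the domain were above 1 RPKM, 5 were not called and 3 were at 0. Of those at 0, Tssc4 has 3 rows and Tspan32 has 4, so their values are not read as absence. Among all symbols tested, which leaves out those at 0, 43.2% were above.

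Meg3, Rian and Mirg lie in this order on chromosome 12, on the same strand, and are expressed from the maternal chromosome. Rian had 76, 150 and 129 counts, or 2.74, 5.09 and 3.61 RPKM, with a mean of 3.81 ± 1.19 (log2 level 1.93, edgeR adjusted p = 1.67e-14). Replicate 2 was highest and replicate 1 lowest, and all 3 were above 1 RPKM on the median length of 790 bases. Rian has 14 basic transcripts of 295 to 8089 bases. With the longest, its mean was 0.372 RPKM and the call reversed to below 1 RPKM (log2 level −1.43, edgeR adjusted p = 2.88e-05).

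Meg3 (Gtl2), a noncoding RNA studied for its link to p53 and growth arrest, had 8, 3 and 0 counts, all in 1 of its 3 rows. The mean was 0.0528 ± 0.0594 RPKM and was not called (edgeR adjusted p = 0.155). Mirg had 0, 22 and 0 counts, so its 0.0617 ± 0.107 RPKM came from replicate 2 alone (edgeR adjusted p = 0.109). Both were called below 1 RPKM by DESeq2 (DESeq2 adjusted p = 0.0271 and 0.0187). Rian exceeded Mirg, which also has 1 row, in 3 of 3 libraries, with a mean log2 ratio of 4.74 ± 0.52. Mirg was at 0 in replicates 1 and 3, where the ratio rests on the added 0.1 RPKM. The mean log2 ratio was 2.16 with a pseudocount of 1 RPKM, 5.82 with the shortest transcripts and 1.76 with the longest. Meg3 and Mirg did not keep 1 order across libraries, with a mean log2 ratio of 0.04 ± 1.07.

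Dlk1 (Pref-1), the paternally expressed gene of the same domain for a transmembrane relative of the Notch ligands, was listed at 0 in all 5 rows and all 3 libraries. A count of 0 allows up to 3 counts, which is 0.0501, 0.0472 and 0.0389 RPKM in replicates 1, 2 and 3, for counting error only and only if no reads were lost to the split over 5 rows. With symbols at 0 kept in the fit, Dlk1 was called below 1 RPKM (edgeR adjusted p = 0.0249). At the other end of the domain, the thyroid hormone deiodinase gene Dio3 was above 1 RPKM, with levels of 10.4, 8.97 and 7.27 RPKM (mean 8.86 ± 1.55, edgeR adjusted p = 1.88e-76). Rtl1, a retrotransposon-derived gene antisense to some microRNAs, was below at 0.197 ± 0.0544. By these calls the domain was uneven: Rian and Dio3 were above 1 RPKM, Rtl1 was below, Meg3 and Mirg were not called, and Dlk1 was at 0. The several rows of Meg3 and Dlk1 and the length chosen for Rian limit this reading.

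**Figure D2:**
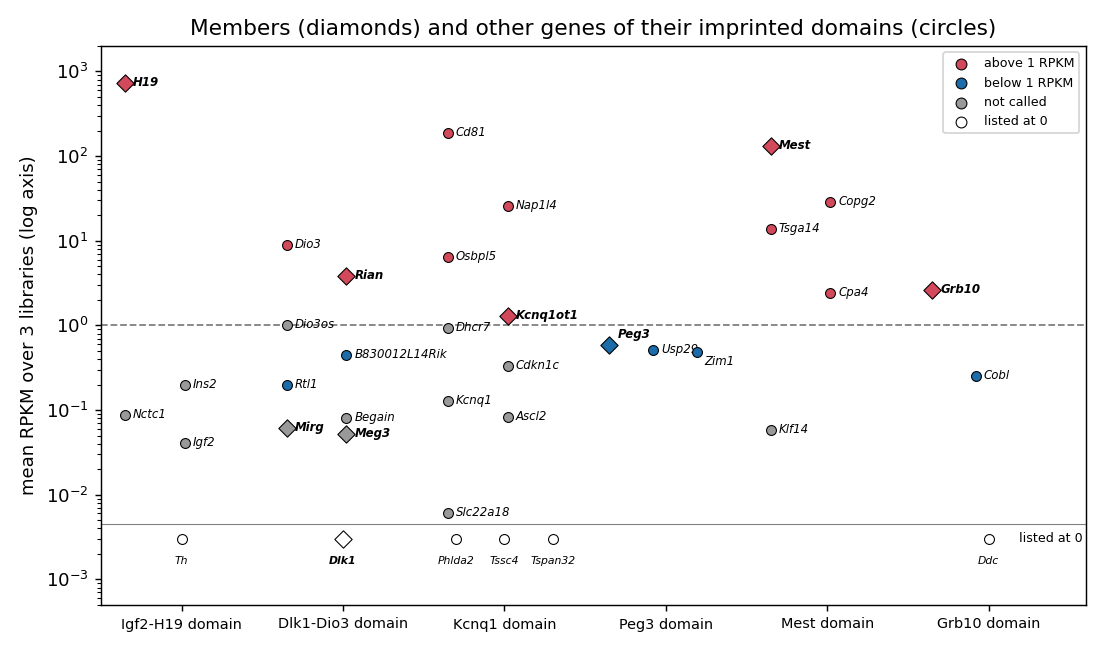
Mean RPKM over 3 libraries (log axis) of the members (diamonds) and of other listed genes of their domains (circles), coloured by the edgeR call; open points in the lower strip are listed at 0, and Plagl1 is not drawn because no neighbours were listed for it. H19 is at 726 RPKM, beside Igf2, Ins2 and Nctc1, which were not called, and the Peg3 domain lies between 0.487 and 0.584 RPKM.

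Notch pathway genes, listed because DLK1 resembles Notch ligands, had 7 of 22 above 1 RPKM, 6 below and 9 not called, with a median of 0.370 RPKM. The shares of all symbols tested were 43.2% above and 13.4% below. The receptor gene Notch2 stood at 26.4 ± 1.17 RPKM, the ligand gene Jag1 at 22.4 ± 1.17 and the target gene Hes1 at 13.9 ± 2.11. Dlk2, the closest relative of Dlk1, has 1 row and had 9, 4 and 17 counts (0.161 ± 0.0879 RPKM, not called).

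Across all domains, 68 other imprinted genes were measured, of which 27 were above 1 RPKM, 10 below, 20 not called and 11 at 0, with a median of 0.501 RPKM. Only 48 of the 68 have 1 row, and 23 of those 48 were above and 7 below. Beside these, 43.2% of all symbols tested were above and 13.4% below, where symbols at 0 are left out. For symbols tested with 1 row the shares were 45.4% and 12.6%. Besides the domains described, Igf2r (67.3 RPKM) and Pon3, a paraoxonase gene at 37.7 ± 2.59, were high, and the small leucine-rich proteoglycan gene Dcn stood at 34.8 ± 4.2. The noncoding Peg13, with 1 row, stood at 12.0 ± 1.84 RPKM. Ndn, a paternally expressed gene of the Snrpn domain that limits cell growth, stood at 4.14 ± 0.561. Peg10 and Sgce, paternally expressed neighbours with 2 and 5 rows, were listed at 0. Leaving out replicate 1 left 6 of these genes below 1 RPKM, and leaving out replicate 2 left 4.

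Genes that set, maintain, read or remove the DNA methylation and chromatin marks of imprints had 8 of 18 above 1 RPKM, 2 below, 5 not called and 3 at 0. Across all symbols tested, which leaves out those at 0, 43.2% were above and 13.4% below. Ctcf, whose product insulates Igf2 from its enhancers on the maternal chromosome, stood at 27.3 ± 1.29 RPKM. Smchd1 stood at 20.9 ± 1.35 RPKM. Trim28, the corepressor gene, stood at 20.5 ± 0.0552 and Tet2, a gene for a 5-methylcytosine dioxygenase, at 12.0 ± 0.552. Zfp57, a zinc finger gene whose product binds methylated imprint control regions and recruits TRIM28, had 73, 121 and 107 counts over 4 rows and was not called (1.37 ± 0.326 RPKM). The maintenance methyltransferase gene Dnmt1 stood at 8.05 ± 0.971, and its partner gene Uhrf1, with 4 rows, was at 0. Dnmt3b, with 5 rows, and Ehmt1, with 4 rows, were also at 0.

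The start regions of the members differed in CG dinucleotides, the sites of DNA methylation. RefSeq windows of 300 bases (250 before to 50 after the start, GRCm38.p6) were at hand for 9 members, with 13 windows in all, and 11 of the 13 had more CG dinucleotides than the median of 7 over all 32851 windows. The hexamer TGCCGC, the methylated sequence that ZFP57 recognises, was searched on both strands and found in 5 of the 13 windows, belonging to Meg3, Mest, Plagl1 and Grb10. It occurs in 11.6% of all windows. The 2 windows at the main Mest start overlap almost fully, so they are not separate. A match is a description of these letters only, and no methylation was measured. The 250 bases before the main start of Mest, the highest protein-coding member, are shown beside those of Rian, whose window holds 0 CG dinucleotides. Mest is on the plus strand at chr6:30737800-30738049 with 14 CG, and Rian on the plus strand at chr12:109603695-109603944. Capitals mark CG.
Mest: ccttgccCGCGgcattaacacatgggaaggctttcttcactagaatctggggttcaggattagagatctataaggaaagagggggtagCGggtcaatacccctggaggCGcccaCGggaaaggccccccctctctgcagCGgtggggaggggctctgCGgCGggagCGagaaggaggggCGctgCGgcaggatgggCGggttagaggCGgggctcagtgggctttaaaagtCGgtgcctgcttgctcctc
Rian: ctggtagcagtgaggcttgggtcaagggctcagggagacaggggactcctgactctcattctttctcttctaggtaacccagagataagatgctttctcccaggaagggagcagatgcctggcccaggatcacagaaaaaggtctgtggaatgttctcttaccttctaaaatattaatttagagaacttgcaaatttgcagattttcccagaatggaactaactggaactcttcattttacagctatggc

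In order of mean level on the median lengths, H19, Mest and Plagl1 did not overlap with each other or with any other member in any library. Rian and Grb10 came next and overlapped, since Rian in replicate 1 (2.74 RPKM) was under Grb10 in replicate 3 (2.81 RPKM). Kcnq1ot1 and Peg3 followed without overlap, and Mirg, Meg3 and Dlk1 were at or near 0 and could not be ordered. The places of Rian and Grb10 rest on their lengths, because their annotated transcripts vary most among the members above 1 RPKM. With the shortest transcripts Rian stood at 10.2 RPKM and Plagl1 at 9.68, so the place of Plagl1 also depends on length.

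**Figure D3:**
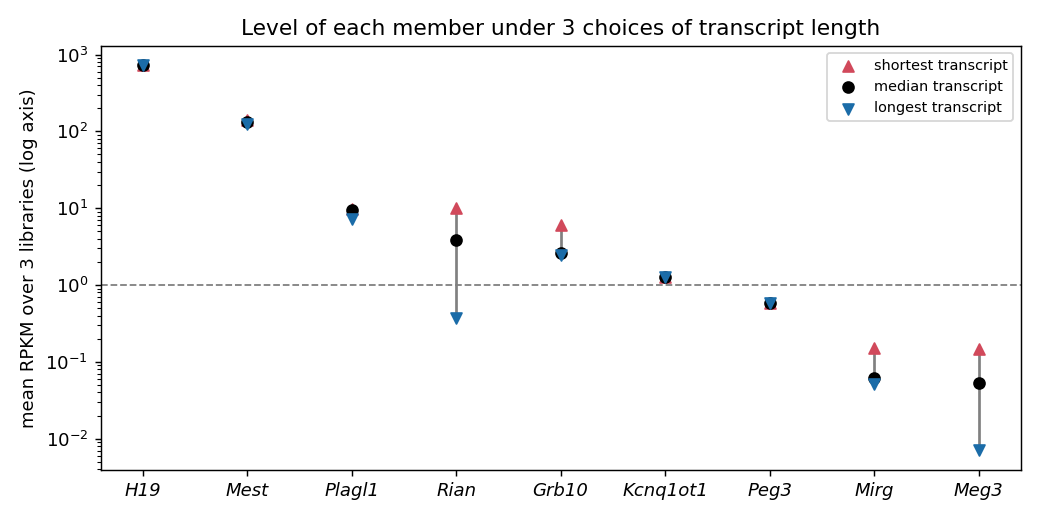
Mean RPKM over 3 libraries (log axis) of the 9 members with counts, computed with the shortest, median and longest basic transcript; the dashed line is 1 RPKM. Rian ranges from 0.372 to 10.2 RPKM, whereas H19, Peg3 and Kcnq1ot1 have a single length.

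The members varied between libraries to different degrees. The coefficient of variation was 15.4% for H19, 15.7% for Mest, 17.8% for Peg3, 8.13% for Kcnq1ot1, 7.70% for Grb10 and 31.3% for Rian. For each of these, counting error alone gives less, from 0.395% for H19 to 9.59% for Rian. The median over symbols with at least 100 counts was 13.6% for protein-coding and 28.5% for long noncoding genes. H19 and Kcnq1ot1 were under the second median, but it takes in symbols with far fewer counts, where counting error is larger. Symbols of like count were not compared.

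Of the 5 noncoding members with counts, 4 were highest in replicate 2: H19, Rian, Mirg and Kcnq1ot1. None of the 4 protein-coding members with counts was highest there, and Mest, Plagl1 and Grb10 were lowest in it. The libraries differed less for Plagl1 (coefficient of variation 1.37%) than counting error alone gives (2.62%), and Mirg had 22 counts in replicate 2 alone. H19 reached 115% of its mean in replicate 2 and 84.2% in replicate 3, whereas Mest was at 85.8% and 117%. Of 9 other noncoding RNAs listed with counts, 5 were highest in replicate 2 (Rn7sk, Malat1, Neat1, Rpph1 and Dnm3os), 2 in replicate 1 (Gas5 and Snhg1) and 2 in replicate 3 (Rmrp and Tug1). Rn7sk and Malat1 were each at 113% of their means in replicate 2, whereas Tug1 was at 84.8% and Snhg1 at 82.9%. Across all symbols with at least 100 counts, 30.5% of long noncoding and 28.4% of protein-coding genes were highest in replicate 2. The part of library composition in the pattern of the members was not tested.

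**Figure D4:**
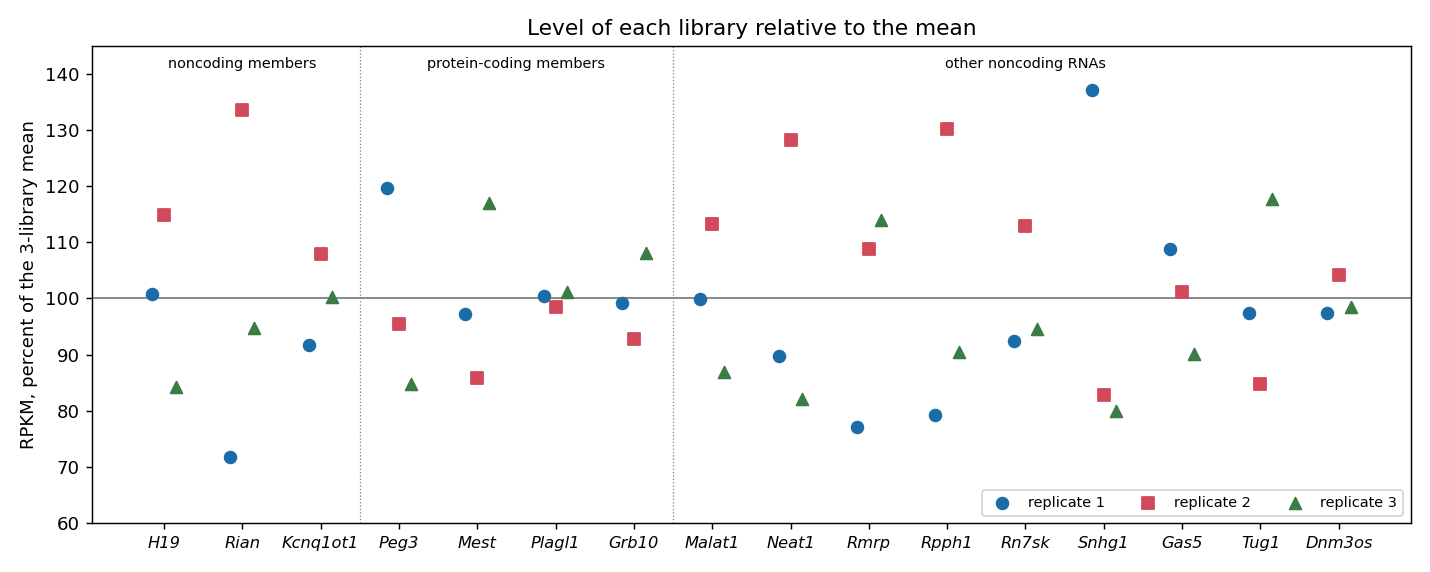
RPKM of each library as a percent of the 3-library mean, for the 3 noncoding and 4 protein-coding members with counts in every library and for 9 other noncoding RNAs; the line is 100%. Replicate 2 (squares) is the highest point for H19, Rian and Kcnq1ot1, the lowest for Mest, Plagl1 and Grb10, and the highest for 5 of the 9 other noncoding RNAs. For Plagl1 the spread is below that of counting error alone.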

How the data were processed

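Total RNA of 3 cultures was sequenced after removal of ribosomal RNA, with strand-preserving ScriptSeq v2 preparation per the labels' protocols. TopHat and build mm9 are named in the submitters' processing notes. For the counting tool, annotation, strand setting and reads that match several rows, the entry is: not given in the sources used here. The deposited values, whole numbers in 30795 rows, were used as raw counts; other whole-number quantities were not tested, and every RPKM rests on this reading. Rows were summed per symbol. Lengths are medians over GENCODE M21 basic transcripts, matched for 23033 of 25410 symbols (2193 through RefSeq synonyms), which held 96.3% to 96.4% of the counts.

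Levels were tested two-sided against 1 RPKM with edgeR 4.0.16 (R 4.3.3), quasi-likelihood with trended dispersion, robust estimation and a Poisson bound, Benjamini-Hochberg adjusted over all symbols tested (threshold 0.05). The F statistic was computed from the edgeR fit, and the procedure was tested on simulated data with a single dispersion for all genes. Genes of wide spread, such as Meg3 and Mirg, were therefore not covered by that simulation. Pair ratios are differences of log2(RPKM + 0.1) within a library. limma 3.58.1 and DESeq2 1.42.0 were alternatives, with other lengths, row rules, filters, library sizes and left-out libraries. The DESeq2 test used its own size factors, scaled to the geometric mean of the library totals.

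The members and lists were chosen with earlier results of these data known. Named genes are all members and both genes of each pair. Genes named from the lists were taken from those above 1 RPKM (up to 4 with the highest mean) and those at 0. Not every such gene is named. Klf14, Rtl1, Nctc1, Ins2, Dlk2, Cobl, Irs2, Igf1, Zim1, Zfp57, Dnmt1, Peg13, Insr and Igf1r were named in addition after their values were seen. So were the other noncoding RNAs and the marker genes Dmp1, Sost, Runx2, Mepe, Fgf23, Pdpn and Phex. Depth limits low genes: floors of 3 counts cover counting error only, since no molecular identifiers are described and reads may be copies of 1 molecule.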

Additional observations from a re-analysis of the deposited data

How the results depend on the processing

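The calls of H19, Mest, Plagl1 and Peg3 held under every alternative run. Of 134 member values under alternatives, 126 kept direction and side of the threshold. Meg3 and Mirg, not called in the report, were called below with limma (limma adjusted p = 1.74e-05 and 3.38e-05) and DESeq2, and Meg3 with the longest transcript (edgeR adjusted p = 0.0478). Rian reversed with the longest transcript (−1.43), because the length rose. Grb10 lost its call with the mean over rows and Kcnq1ot1 with limma (the cause of the latter was not tested).

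Members below 1 RPKM numbered 3 with DESeq2, limma or the longest transcript, and 2 with no filter, where Dlk1 joined Peg3. All symbols below numbered 6521 with DESeq2, 9852 with limma and 4344 with no filter, and 1224, 911 and 2561 without replicates 1, 2 and 3, which leaves fewer samples. The cause of the tools' difference was not tested. Other imprinted genes below numbered 19 with DESeq2, 24 with limma, 4 with the shortest transcript, 20 with no filter and 4 to 10 with a library left out. The counts above moved by less than 1.5 times in all settings. Lengths paired with RefSeq accessions and a library size without Rn7sk and Malat1 were chosen after seeing the data, and they changed no count of members called.

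Of 128 pair ratios under alternatives, 94 stayed within 1 SD, 27 moved and 7 reversed. The log2 ratio of Meg3 over Mirg reversed to −0.0089 with a pseudocount of 1, −0.35 with the longest transcript, −0.28 with the mean over rows and ranged from −0.51 (without replicate 1) to 0.559 (without replicate 2) with a library left out. Peg3 over Usp29 (−0.51) and Grb10 over Grb14 (0.43) reversed with the shortest transcript, and Kcnq1ot1 over Airn (0.15, against −1.76) with the mean over the 4 rows of Airn. No paired analysis was possible because the libraries form a single group.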
